A study of Mus musculus with 14 samples.

Results

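The 33 genes described here encode parts of the oxidative phosphorylation machinery of mitochondria. They comprise 12 subunits of complex I, 4 of complex II, 4 of complex III, 7 of complex IV, cytochrome c and 5 subunits of complex V, and were taken by gene symbol from 19057 named genes on an Illumina mouse BeadChip array. Ndufa4, named as a complex I gene, is counted here with complex IV, to which its protein was later assigned. All 33 are on the array through 50 probes, and 31 passed a filter that asks a probe to exceed the 50th percentile of the array on at least 3 of 10 libraries. Ndufs1 and Sdha, which encode the large iron-sulfur subunit of complex I and the flavoprotein of complex II, were read at means of 6.69 and 6.71 log2, close to the floor of the array, and did not pass it. They enter no test, and complex II is represented by its other 3 subunits.

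The arrays compare mouse intestinal organoids, epithelial structures grown from crypts in matrix, of 2 genotypes. Apc-Prox1-deleted organoids carried villin-CreER with homozygous floxed Apc and homozygous floxed Prox1, and Apc-deleted organoids carried villin-CreER with homozygous floxed Apc alone. All came from C57Bl mice of 2 to 3 months of age, received tamoxifen for 2 days, were then grown for 5 days without the Wnt agonist R-Spondin1, and gave RNA at day 7. Apc, the brake on Wnt signalling, was therefore deleted by design in every group, and no culture with intact Apc was included. The villin promoter restricts the recombinase to intestinal epithelium, and growth without R-Spondin1 selects for loss of Apc, not for loss of the transcription factor Prox1. The samples were run in 2 series, and the question addressed here is whether the messages of the respiratory chain differ with Prox1 once Apc is lost.

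Among the 14 deposited entries, 2 arrays appear under more than 1 label. The fourth Apc-Prox1-deleted entry of series 1 is also labelled as the second Apc-deleted entry of series 2, with no probe more than 0.0111 log2 apart, and the third Apc-Prox1-deleted entry of series 1 is also the second such entry of series 2, within 0.0132 log2. Every other pair was at least 1.17 log2 apart at some probe. All 4 entries were left out because their labels conflict. The 10 libraries used are 2 Apc-Prox1-deleted and 4 Apc-deleted libraries of series 1, with 2 Apc-Prox1-deleted and 2 Apc-deleted libraries of series 2. The 4 Apc-deleted libraries of series 1 form 2 pairs. Replicates 1 and 2 were at most 1.56 log2 apart at any probe and replicates 3 and 4 at most 1.17. Across the pairs the largest gaps were 2.16 to 2.73 log2. The Apc-Prox1-deleted libraries kept from series 1 are numbered 1 and 2, and the part of this split in the differences was not tested. Prox1 read 7.85 and 8.29 log2 in Apc-Prox1-deleted libraries of series 1, against 9.50, 9.42, 10.44 and 9.89 in Apc-deleted libraries, and 8.65 and 9.53 log2 in Apc-Prox1-deleted libraries of series 2, against 10.91 and 10.05 in Apc-deleted libraries. It was lower in both series, by 1.75 ± 0.29 (limma log2 difference -1.75, SE, adjusted p = 0.000946) and by 1.39 ± 0.34 (log2 difference -1.39, SE, adjusted p = 0.0259), although whether its probe lies in the deleted part is not known. Epithelial genes were well measured, with Krt8 at a mean of 13.2, Krt19 at 12.4 and Vil1 at 10.35 log2, while the Epcam probe stayed near the floor at 6.74. The 11 fibroblast, immune and endothelial markers that passed the filter had means of 6.73 to 6.89 log2, near the floor, and none passed the test in either series. Of 8 measured absorptive enterocyte markers, 6 were lower in Apc-Prox1-deleted libraries of series 1 and 0 passed the test in series 2, and their summed log2 level ran between 62.9 and 64.5 in Apc-Prox1-deleted and between 69.5 and 71.8 in Apc-deleted libraries of series 1. All 5 measured enteroendocrine markers were lower in series 1 and 2 of them in series 2. Crypt stem cell markers were lower for 2 of 6 in each series, and their summed log2 level ran between 56.7 and 57.1 in Apc-Prox1-deleted and between 59.6 and 61.4 in Apc-deleted libraries of series 1. Of goblet and Paneth cell markers, 2 of 4 and 1 of 3 were lower in series 1 and none passed in series 2, while 3 of 8 epithelial markers were higher in series 1 and 1 in series 2. Over all kept probes, 8.32% passed in series 1 and 4.12% in series 2, in either direction. The part of these shifts in the values of the 33 genes was not tested. In bulk samples, fewer cells of a type and less RNA per cell cannot be told apart.

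As background, complex I takes electrons from NADH and complex II takes them from succinate, which also makes complex II an enzyme of the citric acid cycle. Both pass electrons through ubiquinone to complex III, from there through cytochrome c to complex IV, which reduces oxygen, and the proton gradient built on the way drives ATP synthesis by complex V. All 33 genes are nuclear, whereas the core of complexes I, III, IV and V also contains subunits encoded by mitochondrial DNA. In the intestine, crypt cells and differentiated enterocytes are known to rely on mitochondrial respiration to different degrees.

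No call was made for the 31 measured genes in any comparison of the genotypes. With the threshold at an adjusted p of 0.05 over all kept probes, 0 of the 31 measured genes passed the limma test in series 1, where 8.32% of all kept probes passed, and 0 of 31 passed in series 2, where 4.12% passed. Over both series with the series as a term, 0 of 31 passed against 12.7% of all kept probes. At an unadjusted p under 0.05, the numbers were 4 of 31 in series 1, 0 of 31 in series 2 and 3 of 31 over both, against 20.1%, 16.6% and 24.9% of all kept probes. The smallest adjusted p was 0.0735 in series 1, for Sdhc, 0.357 in series 2, for Atp5o, and 0.0529 over both series, for Ndufv2. These calls sit near the threshold: Sdhc passed in series 1 without Apc-deleted series 2 replicate 1 (adjusted p = 0.0271) or replicate 3 (adjusted p = 0.029), which enter only through the shared spread. Over both series, Sdhc passed without Apc-deleted series 2 replicate 1 (adjusted p = 0.00549), Ndufv2 and Ndufa4 passed without Apc-deleted series 1 replicate 2 (adjusted p = 0.034 and 0.0444), and Ndufv2 (adjusted p = 0.0309) and Atp5a1 (adjusted p = 0.0445) passed without replicate 3 of the Apc-Prox1-deleted libraries of series 2.

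The sizes of the differences were small as well. The median log2 difference, Apc-Prox1-deleted minus Apc-deleted, was 0.05 over the 31 genes in series 1 and 0.025 in series 2, against 0.005 and 0.002 over all kept probes. In series 1 the differences ran between -0.474 and 0.299, with 17 genes above 0 and 14 below. In series 2 they ran between -0.349 and 0.269, with 18 above 0, 12 below and Uqcrq at 0.00. Signs were shared between the series by 19 genes and not by the other 12, but many of them are not settled. Leaving out Apc-deleted replicate 1, Apc-Prox1-deleted replicate 1 or Apc-deleted replicate 3 of series 2 turned 7, 8 and 8 of the 31 signs in that series. Without Apc-Prox1-deleted replicate 3 of series 2, 2 of them turned. Using all 14 entries turned 9 of 31 in series 1. Over both series, the 95% limma interval of each of the 31 differences lay within a 1.5-fold change in either direction, against 89.4% of all kept probes, and the intervals reached at most -0.572 and 0.533 log2. Within single series the same held for 28 of 31 genes in series 1, against 83.6% of all kept probes, and for 26 of 31 in series 2, against 81.8%.

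Because probes near the floor understate any change, the same was read for the 25 genes with a mean of at least 8 log2. All 25 intervals over both series lay within 1.5-fold, against 71.3% of the 7333 kept probes with a mean of at least 8 log2. The median SE was 0.096 over the 25 genes and 0.117 over the 7333 probes, so the shares also reflect precision. Within series 1 it was 22 of 25 against 54.8%, and within series 2 it was 20 of 25 against 50.5%. Absolute differences of 0.25 log2 (1.19-fold) or more over both series were seen for 2 of the 25 genes, Ndufv2 and Sdhc, against 39.0% of probes, and differences of 0.5 log2 (1.41-fold) or more for 0 of 25, against 13.9%. The median absolute difference was 0.119 log2 over the 25 genes and 0.189 log2 over the 7333 probes. These are descriptions, and no test of the list was made. The 6 genes under 8 log2, Ndufb5, Sdhd, Uqcrfs1, Cox7a2, Cox7b and Atp5a1, carry less information about small changes.

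**Figure D1:**
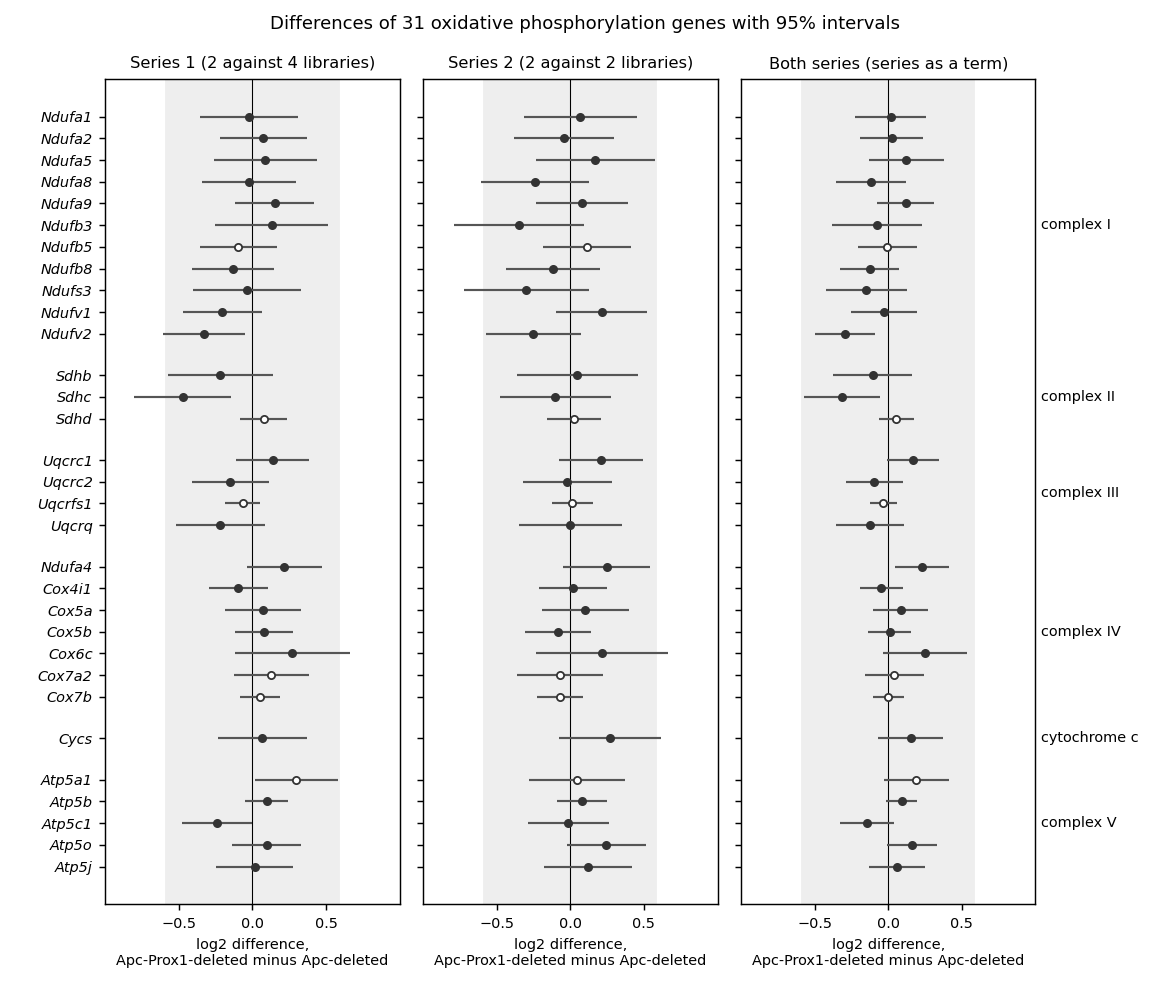
Log2 difference, Apc-Prox1-deleted minus Apc-deleted, of the 31 measured genes by complex, with 95% limma intervals, in series 1, in series 2 and over both series. The grey band spans a 1.5-fold change in either direction and open circles mark the 6 genes with a mean under 8 log2; all 31 intervals over both series lie inside the band.

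**Figure D2:**
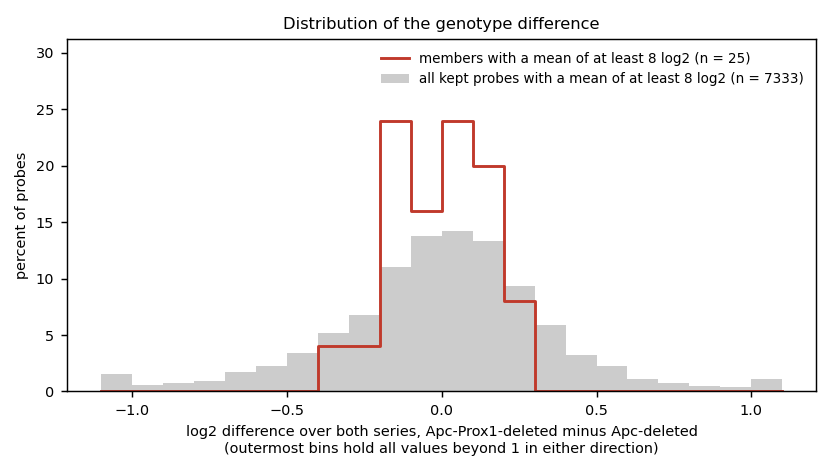
Percent of probes by log2 difference over both series, Apc-Prox1-deleted minus Apc-deleted, for the 25 genes with a mean of at least 8 log2 (line) and for the 7333 kept probes at that level (bars). The line holds 0 genes beyond 0.5 log2 in either direction, where 13.9% of the probes lie.

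In complex I, the entry point of NADH electrons, 11 subunits were measured, and their median log2 difference was -0.024 in series 1 and -0.044 in series 2. Ndufv2, which encodes an iron-sulfur subunit of the NADH dehydrogenase module, read 12.16 and 12.10 log2 in Apc-Prox1-deleted libraries of series 1, against 12.68, 12.35, 12.40 and 12.40 in Apc-deleted libraries. In series 2 it read 11.99 and 12.25 in Apc-Prox1-deleted libraries, against 12.34 and 12.40 in Apc-deleted libraries. The genotypes did not overlap in either series, with the Apc-Prox1-deleted libraries below. The log2 difference was -0.33 ± 0.13 in series 1 (SE, adjusted p = 0.158), -0.25 ± 0.15 in series 2 (adjusted p = 0.455) and -0.30 ± 0.10 over both (adjusted p = 0.0529), with adjusted p between 0.0309 and 0.188 when single libraries were left out over both series. In series 2 alone the log2 difference was -0.12 without Apc-Prox1-deleted replicate 1 and -0.384 without replicate 3.

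Ndufv1, the flavoprotein that binds NADH in the same module and the complex I gene with the highest signal, showed no such order. It read 12.79 and 12.72 log2 in Apc-Prox1-deleted libraries of series 1, against 12.90, 13.09, 12.98 and 12.86 in Apc-deleted libraries, so it lay below them without overlap. Series 2 gave 12.49 and 12.76 in Apc-Prox1-deleted libraries, against 12.25 and 12.57 in Apc-deleted libraries, and the groups overlapped. Its log2 difference was -0.21 ± 0.13 in series 1 and 0.21 ± 0.15 in series 2. The 2 values differed by 0.42 ± 0.19 log2, series 2 minus series 1 (limma adjusted p = 0.684). In the test of the difference between series 0 of 31 genes passed, against 0.561% of all kept probes, and at an unadjusted p under 0.05 Ndufv1 alone did, 1 of 31 genes against 7.19%.

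Ndufb3, an accessory subunit of the membrane arm, had the largest absolute difference of complex I in series 2. It read 10.08 and 10.07 log2 there in Apc-Prox1-deleted libraries, against 10.52 and 10.32 in Apc-deleted libraries, a log2 difference of -0.35 ± 0.21 (adjusted p = 0.451). In series 1 it read 10.34 and 10.41 in Apc-Prox1-deleted libraries and 10.31, 9.85, 10.58 and 10.24 in Apc-deleted libraries, where the groups overlapped and the Apc-deleted libraries alone spanned the whole range. Ndufs3, a core subunit of the matrix arm, differed by -0.04 in series 1 and -0.30 in series 2 on the log2 scale. Ndufa9, an accessory subunit near the ubiquinone site, differed by 0.15 and 0.08, and Ndufa5 by 0.09 and 0.17. Ndufa8 differed by -0.02 and -0.24 and Ndufb8 by -0.13 and -0.12. Ndufa1 differed by -0.02 and 0.07, Ndufa2 by 0.07 and -0.04, and Ndufb5 by -0.10 and 0.11. None of these 8 passed the test in either series or over both. The second probe of Ndufb8, at a mean of 7.51 log2, had log2 differences of 0.28 and 0.10 in the 2 series, opposite in sign to its bright probe. That of Ndufa8, at a mean of 10.31 log2, had differences of 0.11 and -0.04, opposite in sign to the probe read in series 1.

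Complex II oxidises succinate, with Sdhb as the iron-sulfur subunit and Sdhc and Sdhd as membrane anchors. Sdhc had the largest absolute difference of all 31 genes in series 1. It read 11.67 and 11.68 log2 in Apc-Prox1-deleted libraries of series 1, against 12.14, 12.15, 12.12 and 12.18 in Apc-deleted libraries. Both groups were tight and did not overlap, and the log2 difference was -0.47 ± 0.16 (SE, adjusted p = 0.0735), a 1.39-fold lower level. Its series 2 levels were 11.48 and 11.49 in Apc-Prox1-deleted libraries, against 11.27 and 11.91 in Apc-deleted libraries, which lay on either side. There the log2 difference was -0.10 ± 0.18 (adjusted p = 0.847), and it was 0.215 without Apc-deleted series 2 replicate 3 and -0.42 without replicate 1. The difference between the series, 0.37 ± 0.24, did not pass (adjusted p = 0.846). Over both series the log2 difference was -0.31 ± 0.12 (adjusted p = 0.107). Sdhb differed by -0.22 ± 0.17 in series 1 and 0.05 ± 0.19 in series 2, and Sdhd, at 7.15 log2 on average, by 0.08 and 0.03. Another Sdhb probe, at a mean of 9.21 log2, close to the 9.47 of the probe read, differed by -0.07 and -0.21. Its sign in series 2 was opposite. A dim Sdhb probe, at 6.8 log2, differed by -0.07 and -0.03.

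Complex III passes electrons to cytochrome c. Uqcrc1, a core protein of its matrix side, read 12.61 and 12.46 log2 in Apc-Prox1-deleted libraries of series 1, against 12.40, 12.43, 12.41 and 12.36 in Apc-deleted libraries. The series 2 levels were 12.61 and 12.73 in Apc-Prox1-deleted libraries, against 12.54 and 12.38 in Apc-deleted libraries. The genotypes did not overlap in either series, with the Apc-Prox1-deleted libraries above, and the log2 difference over both series was 0.17 ± 0.08 (SE, adjusted p = 0.23). Uqcrc2, the other core protein, had the highest signal of complex III and did not share this order. It read 12.99 and 12.72 log2 in Apc-Prox1-deleted libraries of series 1 and 12.84, 12.96, 13.21 and 13.01 in Apc-deleted libraries, then 13.15 and 13.26 in Apc-Prox1-deleted libraries of series 2 and 13.31 and 13.15 in Apc-deleted libraries. The groups overlapped in both series. The scale of the Uqcrc2 values was settled through the copied arrays, as it was for the bright probe of Atp5j. Uqcrq, a small subunit known as a ubiquinone-binding protein, read 8.47 and 8.51 in Apc-Prox1-deleted libraries of series 1 and 8.86, 8.41, 8.80 and 8.77 in Apc-deleted libraries. Levels in series 2 were 8.48 and 8.52 in Apc-Prox1-deleted libraries and 8.42 and 8.58 in Apc-deleted libraries, and the log2 differences were -0.22 ± 0.14 and 0.00 ± 0.17. Uqcrfs1, the Rieske iron-sulfur protein, stayed near the floor at 6.77 log2 and differed by -0.07 and 0.01.

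Complex IV reduces oxygen. Ndufa4 read 12.95 and 13.03 log2 in Apc-Prox1-deleted libraries of series 1, against 12.87, 12.94, 12.65 and 12.65 in Apc-deleted libraries. Series 2 gave 13.19 and 13.00 in Apc-Prox1-deleted libraries, against 12.77 and 12.93 in Apc-deleted libraries. The genotypes did not overlap in either series, with the Apc-Prox1-deleted libraries above by 0.22 ± 0.12 and 0.25 ± 0.14 log2, and by 0.23 ± 0.09 over both (adjusted p = 0.104). In series 1 the Apc-deleted replicates 1 and 2 read 12.87 and 12.94, close to the Apc-Prox1-deleted libraries. Replicates 3 and 4 both read 12.65 and widened the difference. Cox6c, a small nuclear subunit, had the largest positive difference over both series, 0.25 ± 0.14 log2 (adjusted p = 0.283). It read 10.39 and 10.47 in Apc-Prox1-deleted libraries of series 1, against 10.24, 9.86, 10.05 and 10.49 in Apc-deleted libraries, and 8.42 and 8.75 in Apc-Prox1-deleted libraries of series 2, against 8.54 and 8.20 in Apc-deleted libraries. The groups overlapped in both series, and the gap between the series was far wider than that between the genotypes. Cox5b, a zinc-binding subunit with the highest signal of complex IV, read 13.65 and 13.59 in Apc-Prox1-deleted libraries of series 1 and 13.59, 13.56, 13.50 and 13.51 in Apc-deleted libraries. It read 13.36 and 13.46 in Apc-Prox1-deleted libraries of series 2 and 13.43 and 13.55 in Apc-deleted libraries, with log2 differences of 0.08 ± 0.09 and -0.08 ± 0.11. Another kept Cox5b probe, at a mean of 11.37 log2, had differences of 0.01 and 0.16, opposite in sign in series 2. Cox4i1, the ubiquitous isoform of the largest nuclear subunit, differed by -0.10 and 0.02 and Cox5a by 0.07 and 0.10 on the log2 scale. Cox7a2 and Cox7b, at 7.34 and 6.86 log2, differed by 0.13 and 0.05 in series 1 and by -0.07 each in series 2. Of the 7 genes of this complex, 6 lay above 0 in series 1 and 4 in series 2, and none passed the test.

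Cytochrome c, the electron carrier encoded by Cycs and also a trigger of apoptosis when released from mitochondria, read 11.55 and 11.61 log2 in Apc-Prox1-deleted libraries of series 1 and 11.63, 11.50, 11.56 and 11.35 in Apc-deleted libraries, with overlap. In series 2 it read 11.59 and 11.31 in Apc-Prox1-deleted libraries, against 11.14 and 11.22 in Apc-deleted libraries, and lay above them. The log2 difference was 0.07 ± 0.14 in series 1 and 0.27 ± 0.17 in series 2, the largest positive difference of the 31 genes in that series, and neither passed (adjusted p = 0.882 and 0.463).

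Complex V is the ATP synthase. Atp5b, the catalytic beta subunit, with the highest signal of the 31 probes, read 14.87 and 14.87 log2 in Apc-Prox1-deleted libraries of series 1, against 14.82, 14.76, 14.82 and 14.69 in Apc-deleted libraries. The levels of series 2 were 14.79 and 14.89 in Apc-Prox1-deleted libraries, against 14.75 and 14.77 in Apc-deleted libraries. The genotypes did not overlap in either series, yet the log2 difference over both was only 0.09 ± 0.05 (adjusted p = 0.301). Atp5o, a subunit of the peripheral stalk, read 13.11 and 13.14 in Apc-Prox1-deleted libraries of series 1 and 13.08, 12.94, 13.17 and 12.91 in Apc-deleted libraries, with overlap. It read 12.91 and 12.97 in Apc-Prox1-deleted libraries of series 2, against 12.74 and 12.66 in Apc-deleted libraries, a log2 difference of 0.24 ± 0.13 (adjusted p = 0.357). Atp5a1, the alpha subunit, read 8.53 and 8.56 in Apc-Prox1-deleted libraries of series 1, against 8.27, 8.38, 8.07 and 8.29 in Apc-deleted libraries, and lay above them by 0.30 ± 0.13 log2 (adjusted p = 0.214). Its levels in series 2 were 7.45 and 6.96 in Apc-Prox1-deleted libraries and 7.12 and 7.21 in Apc-deleted libraries, and the groups overlapped. The second probe of Atp5a1, at a mean of 7.79 log2, had a difference of -0.15 ± 0.14 in series 1, opposite in sign. Atp5c1, the gamma subunit of the central stalk, lay below the Apc-deleted libraries in series 1 by 0.24 ± 0.11 (log2 difference -0.24, adjusted p = 0.249) and differed by -0.02 in series 2. Atp5j, coupling factor 6 of the stalk, differed by 0.01 and 0.12. The next brightest probes of Atp5o and Atp5j, at means of 8.55 and 9.15 log2, shared the signs of the probes read. Their log2 differences were 0.16 and 0.14 for Atp5o and 0.18 and 0.28 for Atp5j.

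**Figure D3:**
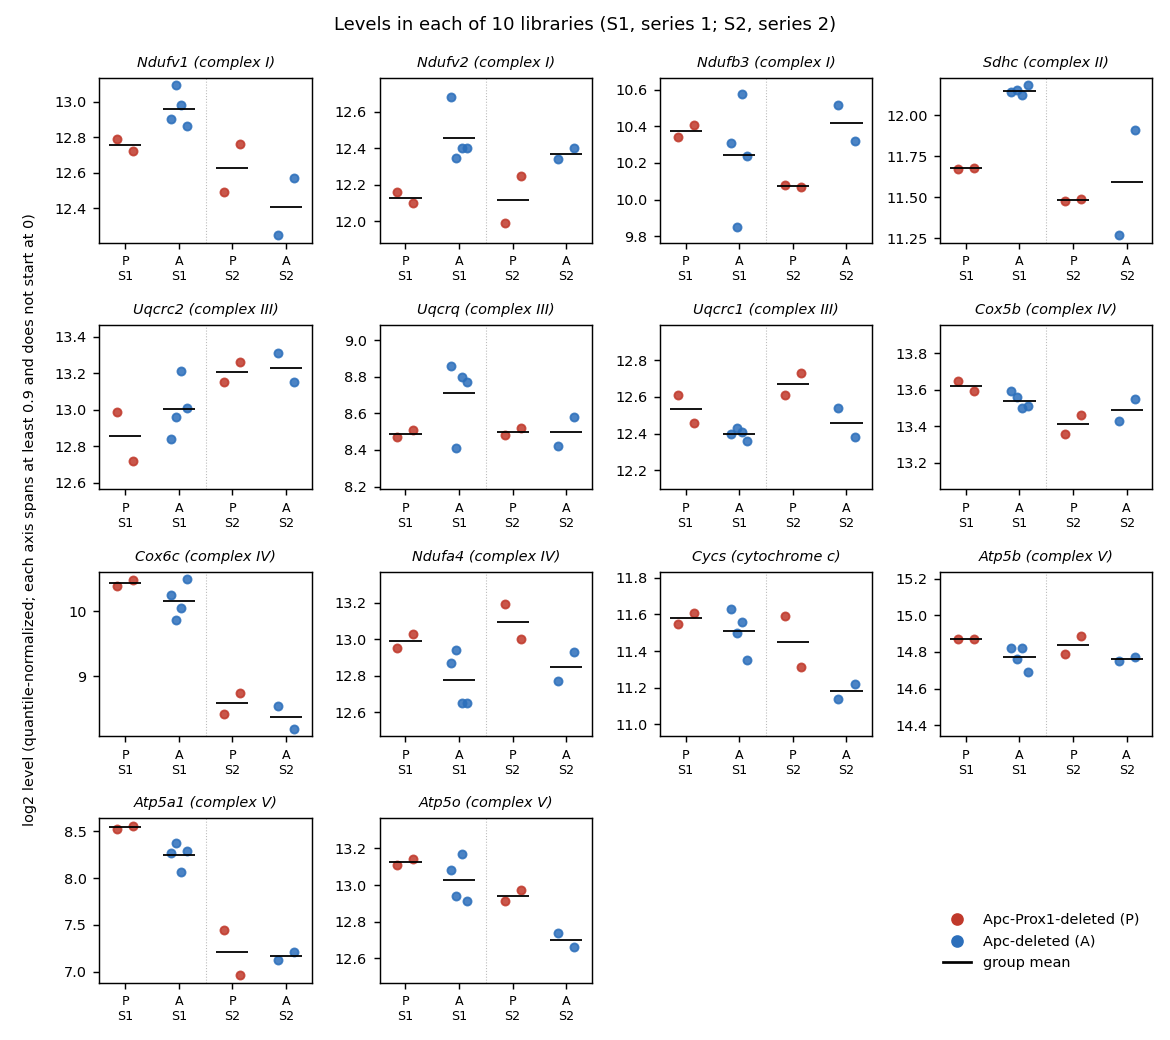
Log2 level in each of the 10 libraries of the 14 genes given library by library, with the group mean as a line; Apc-Prox1-deleted libraries (P) stand left of Apc-deleted libraries (A) in series 1 (S1) and series 2 (S2). Ndufv2 lies lower and Uqcrc1, Ndufa4 and Atp5b lie higher in the Apc-Prox1-deleted libraries of both series without overlap, and Cox6c and Atp5a1 sit lower in series 2 in both genotypes.

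Separation without overlap occurred in these genes at shares near those over the array. It was seen for 11 of the 31 genes in series 1, against 29.7% of all kept probes, and for 10 of 31 in series 2, against 40.8%. In both series and in the same direction it was seen for 4 of 31, against 14.3% of all kept probes: Ndufv2 was lower and Uqcrc1, Ndufa4 and Atp5b were higher.

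For these 4 genes the start region is shown, since they kept 1 order of the genotypes in both series, which is a description and not a result about these genes. The sequences are from RefSeq on GRCm38.p6 and give the 100 bases before the annotated start, 5′ to 3′ in the direction of the gene, with each CG dinucleotide in capitals. They lie at chr17:66101560-66101659 on the minus strand for Ndufv2, at chr9:108936548-108936647 on the plus strand for Uqcrc1, at chr6:11907451-11907550 on the minus strand for Ndufa4 and at chr10:128083207-128083306 on the plus strand for Atp5b.
Ndufv2: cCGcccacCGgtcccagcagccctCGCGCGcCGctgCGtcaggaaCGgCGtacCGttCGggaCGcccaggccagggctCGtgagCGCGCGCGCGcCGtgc
Uqcrc1: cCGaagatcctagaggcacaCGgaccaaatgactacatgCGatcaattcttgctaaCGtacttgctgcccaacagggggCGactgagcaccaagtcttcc
Ndufa4: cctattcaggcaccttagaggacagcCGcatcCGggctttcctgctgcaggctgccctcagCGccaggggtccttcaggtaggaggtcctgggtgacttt
Atp5b: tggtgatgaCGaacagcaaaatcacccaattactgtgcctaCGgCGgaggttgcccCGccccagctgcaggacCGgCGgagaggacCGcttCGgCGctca
The windows hold 19 CG dinucleotides for Ndufv2, 9 for Atp5b, 5 for Uqcrc1 and 3 for Ndufa4.

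Of the 33 genes, 25 matched the RefSeq promoter table, which reaches 250 bases before to 50 bases after each start. The table holds 32851 promoters of 27025 genes, and 28 promoters of these 25 genes. The 250 bases before the start held a median of 17 CG dinucleotides over the 28 promoters, with a range of 5 to 35, against a median of 6 over all promoters. Sites of factors known to drive nuclear genes for mitochondrial proteins were searched as exact letters on both strands over the whole window. The NRF1 motif GCGCATGCG was found in 3 of 25 genes, Cycs, Ndufa8 and Uqcrc1, and in 1.95% of all genes. The GABP motif CCGGAAGT was found in 1 of 25, Ndufs3, and in 4.31% of all genes, and the YY1 motif AAGATGGCG in 2 of 25, Atp5j and Ndufa9, and in 1.64%. The TATA box letters TATAAA were found in 0 of 25 and in 15.7% of all genes. The Uqcrc1 match lies just after the start, inside the 30 bases at chr9:108936668-108936697 on the plus strand of GRCm38.p6, and is shown with its motif in capitals because Uqcrc1 is the 1 gene of the 4 above with a match. The letter after it completes the same motif on the other strand, so the matches on the 2 strands overlap there. None of the motifs contains another.
Uqcrc1 start region: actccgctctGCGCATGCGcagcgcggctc
A match of letters describes the window and does not show binding.

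Several of these genes differed far more between the series than between the genotypes. Series 2 minus series 1, the median log2 difference of the 31 genes was -0.179 in Apc-Prox1-deleted libraries and -0.21 in Apc-deleted libraries, against 0.016 and 0.012 over all kept probes. In Apc-Prox1-deleted libraries, series 2 lay wholly below series 1 for 17 of 31 genes and wholly above for 5, against 31.2% and 34.0% of all kept probes. In Apc-deleted libraries it lay wholly below for 14 and wholly above for 3, against 23.4% and 25.3%. The largest gaps were those of Cox6c, with log2 differences of -1.84 in Apc-Prox1-deleted and -1.79 in Apc-deleted libraries, of Atp5a1, with -1.35 and -1.09, and of Sdhb, with -0.79 and -1.05. Ndufa2, Atp5j and Ndufa9 were higher in series 2, by 0.25, 0.47 and 0.21 in Apc-Prox1-deleted libraries and by 0.37, 0.36 and 0.28 in Apc-deleted libraries. The 2 series were put on 1 scale here only by quantile normalization, so these gaps are descriptions and were not tested. Genes of the same complex did not move as a block, since Atp5j was higher and Atp5a1 lower in series 2.

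**Figure D4:**
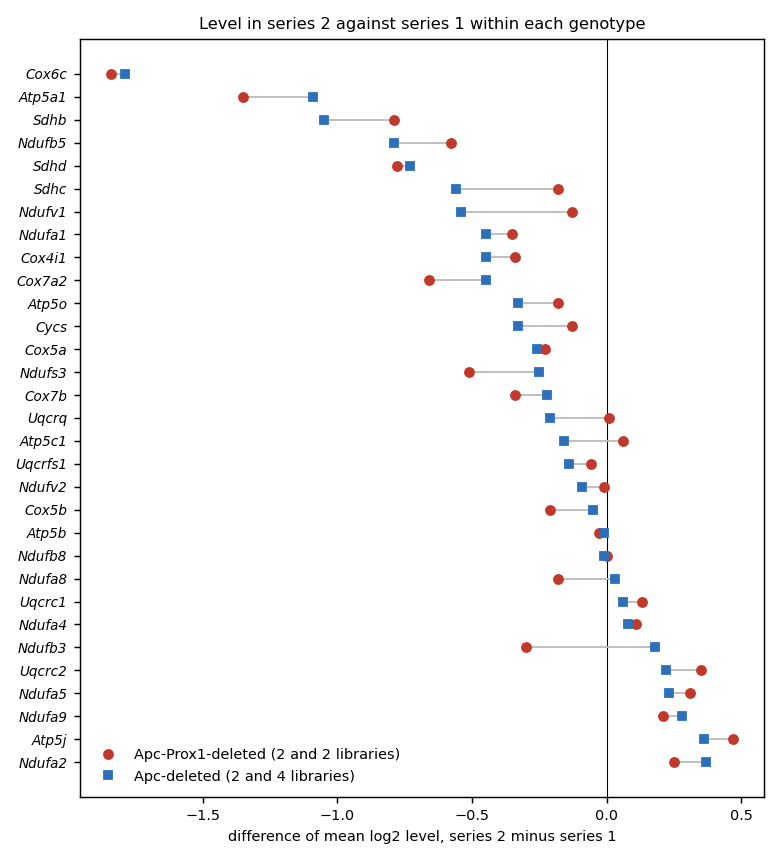
Difference of mean log2 level, series 2 minus series 1, for each of the 31 genes in Apc-Prox1-deleted libraries (circles) and Apc-deleted libraries (squares). Most points lie below 0, with Cox6c lowest at -1.84 and -1.79.

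Among single libraries, Apc-deleted series 1 replicate 1 stood apart for these genes. Its median deviation from its group mean was 0.092 log2, with 26 of 31 genes above the mean, against a median deviation of -0.004 over all kept probes. Without it, the median log2 difference of the genes was 0.088 in series 1 and 0.046 over both series, with 0 genes past the threshold in both comparisons.

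Genes around the machinery were read from lists of other subunits and mitochondrial functions. Of 44 other measured genes listed here with complexes I, III, IV and V, 0 rose and 4 fell over both series. The shares of all kept probes were 5.92% higher and 6.79% lower. Their median log2 difference was -0.073, with 30 of 44 below 0. In complex I the median was -0.107, with 18 of 22 below 0. In complexes III, IV and V, 1 of 4, 4 of 6 and 7 of 12 lay below 0, with medians of 0.026, -0.163 and -0.008. Of the 44, 14 had an unadjusted p under 0.05, against 24.9% of all kept probes. The intervals of 36 of the 44 lay within 1.5-fold, against 89.4%. Most of the 44 had a mean of at least 8 log2. Among kept probes at that level, 2856 of 7333 had an unadjusted p under 0.05. The intervals of 71.3% of them lay within 1.5-fold. The 4 that fell were Ndufa6 (log2 difference -0.48 ± 0.13, adjusted p = 0.0179) and Ndufv3 (-0.42 ± 0.13, adjusted p = 0.0354) of complex I, Cox6a2 (-0.31 ± 0.09, adjusted p = 0.0354), the muscle isoform of a complex IV subunit, and Atp5s (-0.31 ± 0.09, adjusted p = 0.0299), known as coupling factor B. Ndufa6 read 11.97 and 12.00 log2 in Apc-Prox1-deleted libraries of series 1, against 12.51, 11.90, 12.59 and 12.26 in Apc-deleted libraries, and 12.19 and 12.34 in Apc-Prox1-deleted libraries of series 2, against 13.01 and 12.90 in Apc-deleted libraries. Its groups overlapped in series 1 and not in series 2. There it was the 1 gene of the 44 that passed (-0.69 ± 0.19, adjusted p = 0.047), against 4.12% of all kept probes. In series 1, 1 of the 44 rose and 2 fell, against 4.0% higher and 4.32% lower of all kept probes. They are named here after their values were seen. Ndufb10 of complex I fell (-0.81 ± 0.15, adjusted p = 0.00205), with 7.96 and 7.92 log2 in Apc-Prox1-deleted libraries, against 9.15, 8.50, 8.60 and 8.72 in Apc-deleted libraries. Cox7a1, a muscle isoform of complex IV, fell (-0.54 ± 0.16, adjusted p = 0.0446), and Cox6b2, a testis isoform of the same complex, rose (0.68 ± 0.16, adjusted p = 0.0123). In series 2 these 3 had log2 differences of 0.08, -0.05 and 0.02 and did not pass, and the test of the difference between series passed for none of the 44. The 8 measured subunits encoded by mitochondrial DNA gave 0 calls in either direction, with a median log2 difference of 0.043 over both series and 0 of 8 at an unadjusted p under 0.05. Of 32 assembly factors, 0 rose and 1 fell, Foxred1 of complex I assembly (-0.42 ± 0.11, adjusted p = 0.0157).

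In the citric acid cycle and the regulators of mitochondrial biogenesis, 2 of 16 and 1 of 19 genes passed over both series, against 12.7% of all kept probes. Of the 16 genes of the cycle and its entry points, Pcx, which makes oxaloacetate from pyruvate, rose (0.23 ± 0.07, adjusted p = 0.0323) and Idh3a, the catalytic subunit of NAD-dependent isocitrate dehydrogenase, fell (-0.36 ± 0.12, adjusted p = 0.0483). Of the 19 regulators, Gabpa, the DNA-binding subunit of GABP, rose (0.31 ± 0.07, adjusted p = 0.00503) and 0 fell. It read 7.54 and 7.54 log2 in Apc-Prox1-deleted libraries of series 1, against 7.20, 7.33, 7.16 and 7.09 in Apc-deleted libraries, and 7.41 and 7.34 in Apc-Prox1-deleted libraries of series 2, against 7.06 and 7.16 in Apc-deleted libraries, with no overlap in either series.

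In import and transport, 3 of 22 and 4 of 10 genes passed over both series, against the same 12.7%, and 0 of 22 and 0 of 10 in series 2, against 4.12%. Most of the 10 had a mean of at least 8 log2. Of kept probes at that level, 22.0% passed over both series and 5.63% in series 2. Of the 22 genes of mitochondrial import and folding, 3 rose and 0 fell: Tomm22, a receptor of the outer membrane translocase (1.80 ± 0.34, adjusted p = 0.00192), and the matrix chaperonins Hspd1 (0.45 ± 0.13, adjusted p = 0.0261) and Hspe1 (0.30 ± 0.09, adjusted p = 0.038). The pooled value of Tomm22 joins unequal series, since its log2 difference was 2.92 ± 0.15 in series 1, where the Apc-deleted libraries averaged 7.01 log2, near the floor, and 0.30 ± 0.18 in series 2, which did not pass (adjusted p = 0.431). Of the 10 carriers and porins, Vdac2, a porin of the outer membrane, rose (0.50 ± 0.11, adjusted p = 0.00674). It read 11.18 and 11.09 log2 in Apc-Prox1-deleted libraries of series 1, against 10.76, 10.55, 10.55 and 10.74 in Apc-deleted libraries, and 9.54 and 9.22 in Apc-Prox1-deleted libraries of series 2, against 8.77 and 8.94 in Apc-deleted libraries. It was higher without overlap in both series. In the same list 3 fell: Slc25a11, the oxoglutarate carrier (-0.53 ± 0.12, adjusted p = 0.0071), Slc25a1, the citrate carrier (-0.44 ± 0.11, adjusted p = 0.0147), and Slc25a20, the carnitine and acylcarnitine carrier (-0.48 ± 0.14, adjusted p = 0.0272).

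Each of these 15 calls outside the 33 genes ended under at least 1 alternative, and many rest on few libraries. Those of Cox6a2 (12 of 18 alternatives), Idh3a (11 of 19), Pcx and Hspe1 (10 of 19 each) ended most often. Cox6a2 and Pcx were also read near the floor, at 6.67 to 7.41 and 6.84 to 7.43 log2 over the 10 libraries. Gabpa was read little higher than Pcx, at 7.06 to 7.54 log2. Without Apc-Prox1-deleted series 1 replicate 1 or 2, 7 and 10 of the 15 no longer passed. Without Apc-Prox1-deleted series 2 replicate 1 or 3, the numbers were 9 and 2. Without Apc-deleted series 2 replicate 1 or 3 they were 5 and 6, and without Apc-deleted series 1 replicate 3 or 4 they were 3 and 4, against 0 without replicate 1 or 2 of that group. With all 14 entries as labelled, 11 of the 15 no longer passed, and among them Hspd1, Hspe1 and Vdac2 turned in sign, with log2 differences of -0.0598, -0.0426 and -0.101 over both series. Gabpa, Tomm22 and Vdac2 passed with any 1 of the 10 libraries left out, but Gabpa and Vdac2 did not pass with all 14 entries, and Tomm22 did not pass with a robust variance prior or on the deposited ratios, where its adjusted p was 0.958.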

How the data were processed

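RNA of 10 libraries was analysed. The deposited values are a ratio per probe: per the values themselves, the median of each probe is 1 in either series, and 1 divisor per probe turns its ratios into multiples of 0.01. The log2 level was recovered as ratio times divisor, searched between 6 and 16, for all 45281 probes. Where several divisors remained, the smallest was taken. For 22 probes, including those of Uqcrc2 and Atp5j, the copied arrays settled the choice. Of the 31 measured genes, 29 have only 1 possible divisor in at least 1 series; a larger divisor would scale a difference up. The log base was taken from the range, 6.35 to 15.23. The authors' background correction and normalization are not given in the sources used here. A non-normalized table with 28 value columns, 14 of them signals, was not used, because its names match no label.

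Values were quantile normalized over the 14 entries, and probes above the 50th percentile, 6.78 log2, on at least 3 of 10 libraries were kept: 26373 of 45281. Linear models were fitted with limma 3.58.1 in R 4.3.3 (lmFit, eBayes with a variance trend), with 4 group means (6 residual degrees of freedom) or series plus genotype (7), two-sided, with Benjamini-Hochberg adjustment over all kept probes and tested on simulated data. Intervals are 95%. A gene was read through its kept probe with the highest mean. Library-by-library values are given for the gene with the highest level and those with the largest differences in each complex. Of the other lists, at most 4 genes a direction are named, by smallest p; remaining members are given as differences. The members, lists and rules were chosen with earlier results of these data known. The labels do not name the animal or culture behind a replicate, and the spread that a p-value is measured against may be technical. The number of arrays limits the precision. Alternatives covered filtering, normalization, the variance prior, the deposited ratios, all 14 entries, each library left out, a replicate block and other probes.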

Additional observations from a re-analysis of the deposited data

Results flagged for a closer look

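In groups of 4 libraries, a highest or lowest library was examined when its gap to the nearest library exceeded 0.829 of the group's range, which chance gives for about 1 in 20 groups. Of 47 such groups over the genes named, 2 met this. Ndufv2 read 12.68 log2 in Apc-deleted series 1 replicate 1, against 12.35 to 12.40 in the other 3 Apc-deleted libraries of series 1. Without that library the Ndufv2 difference in series 1 was -0.255 log2 instead of -0.328. Tomm22 read 7.12 log2 in Apc-deleted series 1 replicate 4, against 6.97 to 6.98 in the others.

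The genotype difference of Tomm22 differed between the series by -2.62 log2 (series 2 minus series 1, limma adjusted p = 4.11e-06). It read 9.92 and 9.94 log2 in Apc-Prox1-deleted libraries of series 1, against 6.97, 6.97, 6.98 and 7.12 in Apc-deleted libraries, and 10.93 and 10.80 in Apc-Prox1-deleted libraries of series 2, against 10.32 and 10.80 in Apc-deleted libraries. Only the Apc-deleted libraries of series 1 lay near the floor.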

How the results depend on the processing

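The count of the 31 genes past the threshold was 0 in series 2 and in the test between series under every alternative run. In series 1 it was 1 (Sdhc) with the filter asking for every library, with all 14 entries as labelled and with only series 1 in the fit, and between 0 and 1 with single libraries left out. Over both series it was 1 with the filter on every library and without a variance trend (Ndufv2), 1 with all 14 entries (Ndufa4), and between 0 and 2 with single libraries left out. With all 14 entries, the median log2 difference was -0.075 in series 1, 0.143 for the difference between series and -0.072 over both. With single libraries left out it lay between -0.016 and 0.088 in series 1, 0.006 and 0.064 in series 2, -0.007 and 0.084 for the difference between series, and -0.015 and 0.046 over both, so its sign is not settled. With all 14 entries, Hspe1 was at -0.197 in series 1 and Hspd1, Hspe1 and Vdac2 at -0.0598, -0.0426 and -0.101 over both. The cause was not tested.

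Correlations of deviations from the group means between libraries of the same replicate number were -0.026 and 0.191 in series 1. In series 2 both were 0.091, which is 1 value, since the deviations in a group of 2 mirror each other. These values do not settle whether replicate numbers pair the libraries. With a replicate block, 0 of 31 genes passed in all 4 comparisons, with medians of -0.001, 0.025, 0.107 and -0.017, and 1650, 1212, 228 and 2010 probes over the whole array. The block ended 11 of the 15 calls outside these genes, Gabpa among them. Counts over the array moved by more than 1.5 times elsewhere too. In series 2 it was 1087, against 378 with cyclic loess, 394 without further normalization, 361 on the deposited ratios, 186 with all 14 entries and 668 with only series 2, and 412 to 1257 with single libraries left out. In series 1 it was 2194, against 2969 with cyclic loess, 2986 without further normalization and 2835 on the deposited ratios. With single Apc-deleted libraries of series 1 left out it was 1664 to 2617. It was lower still without either Apc-Prox1-deleted library of series 1, which leaves 1 library in that group. Between series it was 148, against 63 with the filter on every library, 73 without a trend, 59 on ratios, 53 with all 14 entries and 66 to 166. Over both it was 3353, against 1918 to 3860. Genes near the floor cannot show small changes.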
